A study of Mus musculus with 12 samples.

Results

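The libraries labelled iTreg are the 2 of the study's 12 libraries, 1 with an antibody against 5-hydroxymethylcytosine (5hmC) and 1 with an antibody against 5-methylcytosine (5mC), that the labels assign to induced regulatory T cells of the mouse. They were set against each other over gene areas, the stretches of genome that the deposited table gives for each gene symbol. Gene areas of at least 3000 bp with signal in any of the 10 5hmC and 5mC libraries were taken, which gave 22600 of 37544. Each value is the mean signal over a gene area. It was divided by the median of its own library over these gene areas, 0.2 was added, and the log2 difference of 5hmC and 5mC is called the log2 ratio. A ratio of 0 therefore means that a gene area stood equally far above or below the middle of both libraries, and not that it held as much of one mark as of the other.

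The study precipitated sonicated, denatured genomic DNA with antibodies (DIP-seq) from 5 kinds of T cell, which are named as labelled: iTreg, Th17, Th2, Th1 and naive. Each kind gave 1 5hmC and 1 5mC library. For Th17 cells there were 2 more libraries, 1 with control IgG and 1 of input DNA. The mice were CD2(Cre)Tet2(f/f) animals, in which floxed Tet2 meets a Cre driven by the T and B cell gene CD2, and wild-type littermates on a mixed background. The labels do not say which genotype stands behind a library, how many animals were pooled or how the cells were cultured. With 1 library per group, the iTreg pair has no replicate and its values have no test of their own. The share of cells that carry a mark and the amount of the mark per cell cannot be told apart in bulk DNA.

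Cytosines in CG pairs of mammalian DNA are methylated by Dnmt enzymes. Tet enzymes oxidise 5mC to 5hmC, a step on the path to unmethylated cytosine and also a lasting mark over the bodies and enhancers of expressed genes. Induced regulatory T cells arise from naive CD4 T cells under TGF-beta and interleukin 2 and express the transcription factor Foxp3. Th17 cells arise under TGF-beta with interleukin 6 and make the cytokines encoded by Il17a and Il17f.

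The read number behind each library is unknown. The median signal was 13.9 in the 5hmC library labelled iTreg, with quartiles of 9.0 and 21.0, and 0.7 in its 5mC library, with quartiles of 0.4 and 1.0. Control libraries had medians of 1.0 (IgG) and 1.8 (input). Values carry 1 decimal, so 1 rounding step of 0.1 equals 0.143 of the 5mC median, and 489 gene areas were listed at 0 in the 5mC library. For some genes with low 5mC the range that rounding alone allows is given beside the ratio.

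Markers of Th17 cells went against the label of the 5hmC library, while those of iTreg cells did not set it apart. Of 9 Th17 markers, 7 (Il17a, Il17f, Rora, Il23r, Ccr6, Il21 and Ahr) had their highest 5hmC of the 5 cell types, in library medians, in the library labelled iTreg, and 0 had it in the library labelled Th17. Of 11 measured iTreg markers, 2 (Nt5e and Itgae) were highest in the library labelled iTreg and 2 in the library labelled Th17. The share of all gene areas with their highest 5hmC in each library is not given here. These marker counts therefore have no background beside them. Summed over 8 of the Th17 markers, 5hmC came to 18.1 library medians in the library labelled iTreg, and to 10.7, 13.1, 14.3 and 9.34 in those labelled Th17, Th2, Th1 and naive. The sum leaves out 1 marker with a high IgG signal, and with all 9 the library labelled iTreg was not the highest. The same 8 markers summed to 5.86 medians of 5mC in the library labelled iTreg, against 6.71 in Th17, 7.43 in Th2, 7.75 in Th1 and 7.62 in naive. Over the iTreg markers, 5hmC summed to 25.01 medians in the library labelled iTreg and to 24.8 to 28.0 in the other 4. Markers of B cells (6 measured), myeloid cells (3) and CD8 T and NK cells (5) summed to 10.8, 4.94 and 8.38 medians of 5hmC in the library labelled iTreg, and to 10.5 to 18.6, 4.03 to 5.60 and 7.27 to 12.4 in the others. No marker of any of these lists was at 0 in either library labelled iTreg, and the part of other cells in the results was not tested. The libraries are therefore called by their labels, and for leading genes and lists the ratio is also given with the 5hmC libraries labelled iTreg and Th17 exchanged. The 5mC libraries keep their places in this exchange, so the exchanged ratio sets 5hmC labelled Th17 against 5mC labelled iTreg. Of the ratios of 173 named genes, the exchange changed the sign of 17, of which 6 were past 2-fold as labelled, and 61 others than these 6 moved by at least 1 SD of the other 4 cell types. Of 32 list medians 9 moved by that much.

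Promoter sequences are shown for 5 genes on which the results turn, to set the density of CG pairs, the bases that carry both marks, beside the values. Il17a and Il17f had the largest excess of the iTreg ratio over the other cell types among the named genes. Gata3 had the highest ratio among the lineage transcription factors, Foxp3 is the defining gene of the label, and Ifrd2 was high in 5mC and low in 5hmC. The sequences run 5′ to 3′ from 250 bases before to 50 bases after the transcription start in RefSeq on GRCm38.p6, with CG in capitals. CG reads the same on both strands and cannot overlap itself. Of the 32851 promoter sequences in the table, 94.6% hold at least 1 CG. Il17a lies at chr1:20730655-20730954 on the plus strand with 6 CG and Il17f at chr1:20784221-20784520 on the minus strand with 4. Gata3 lies at chr2:9878551-9878850 on the minus strand with 22 CG. Foxp3, for which the first of 2 starts is shown, lies at chrX:7579426-7579725 on the plus strand with 6 CG. Ifrd2 lies at chr9:107587468-107587767 on the plus strand with 28 CG.
Il17a: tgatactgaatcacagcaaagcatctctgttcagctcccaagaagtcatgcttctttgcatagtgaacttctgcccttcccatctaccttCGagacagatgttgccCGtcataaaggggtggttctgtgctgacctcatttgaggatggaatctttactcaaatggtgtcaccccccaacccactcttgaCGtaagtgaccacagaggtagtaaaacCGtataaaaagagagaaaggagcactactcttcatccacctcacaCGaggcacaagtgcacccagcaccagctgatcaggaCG
Il17f: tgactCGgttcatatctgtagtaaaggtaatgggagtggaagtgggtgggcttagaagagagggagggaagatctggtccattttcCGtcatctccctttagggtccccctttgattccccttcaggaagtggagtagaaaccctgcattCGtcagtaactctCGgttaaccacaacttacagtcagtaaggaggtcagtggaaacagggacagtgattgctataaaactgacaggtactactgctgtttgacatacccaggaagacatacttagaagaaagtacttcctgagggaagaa
Gata3: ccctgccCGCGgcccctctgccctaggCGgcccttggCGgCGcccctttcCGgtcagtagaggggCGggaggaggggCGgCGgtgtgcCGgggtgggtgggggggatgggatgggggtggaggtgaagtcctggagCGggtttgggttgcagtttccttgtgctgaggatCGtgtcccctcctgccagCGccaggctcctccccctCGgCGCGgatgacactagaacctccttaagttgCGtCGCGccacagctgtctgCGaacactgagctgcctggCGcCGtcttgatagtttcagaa
Foxp3: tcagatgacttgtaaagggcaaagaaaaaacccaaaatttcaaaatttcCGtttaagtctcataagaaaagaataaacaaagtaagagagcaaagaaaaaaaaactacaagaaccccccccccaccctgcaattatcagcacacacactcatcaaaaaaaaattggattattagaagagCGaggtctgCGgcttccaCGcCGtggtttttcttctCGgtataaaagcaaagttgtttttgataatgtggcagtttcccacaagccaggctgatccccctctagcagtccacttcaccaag
Ifrd2: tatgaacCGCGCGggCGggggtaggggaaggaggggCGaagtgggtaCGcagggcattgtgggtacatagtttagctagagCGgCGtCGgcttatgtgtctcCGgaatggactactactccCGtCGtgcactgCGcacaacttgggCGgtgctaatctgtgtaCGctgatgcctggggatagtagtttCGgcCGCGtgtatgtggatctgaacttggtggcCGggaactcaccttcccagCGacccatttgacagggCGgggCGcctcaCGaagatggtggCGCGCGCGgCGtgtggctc
The signal values are averages over the whole gene area and not over these 300 bases. The coordinates of gene areas given from here on are those of the deposited table on mm9, whose counting base is not stated.

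Across gene areas the 2 marks ran together, and most of the contrast lay in the tails. Spearman's rho between 5hmC and 5mC in the libraries labelled iTreg was 0.640 over 22600 gene areas. Each mark comes from 1 library, and both values of a gene area share its length and base composition. The 5mC library correlated with input at 0.693 and the 5hmC library at 0.623, while the ratio correlated with input at -0.059 and with IgG at 0.028. The median log2 ratio was 0.09. A ratio of at least 2-fold in favour of 5hmC was held by 1946 gene areas (8.61%), and 1067 (4.72%) were at least 2-fold the other way. The higher ones thus made up 64.6% of those past 2-fold. This split depended on the scaling: it was 74.6% when libraries were divided by their median over gene areas of any length and 46.0% when they were divided by their mean, which moved the median ratio by 0.10 and -0.13. The 2-fold limits and the signs below are counted from a ratio of 0, so they keep this dependence on the scaling. List medians are for that reason read against the median of all gene areas, which moves with the scaling.

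**Figure D1:**
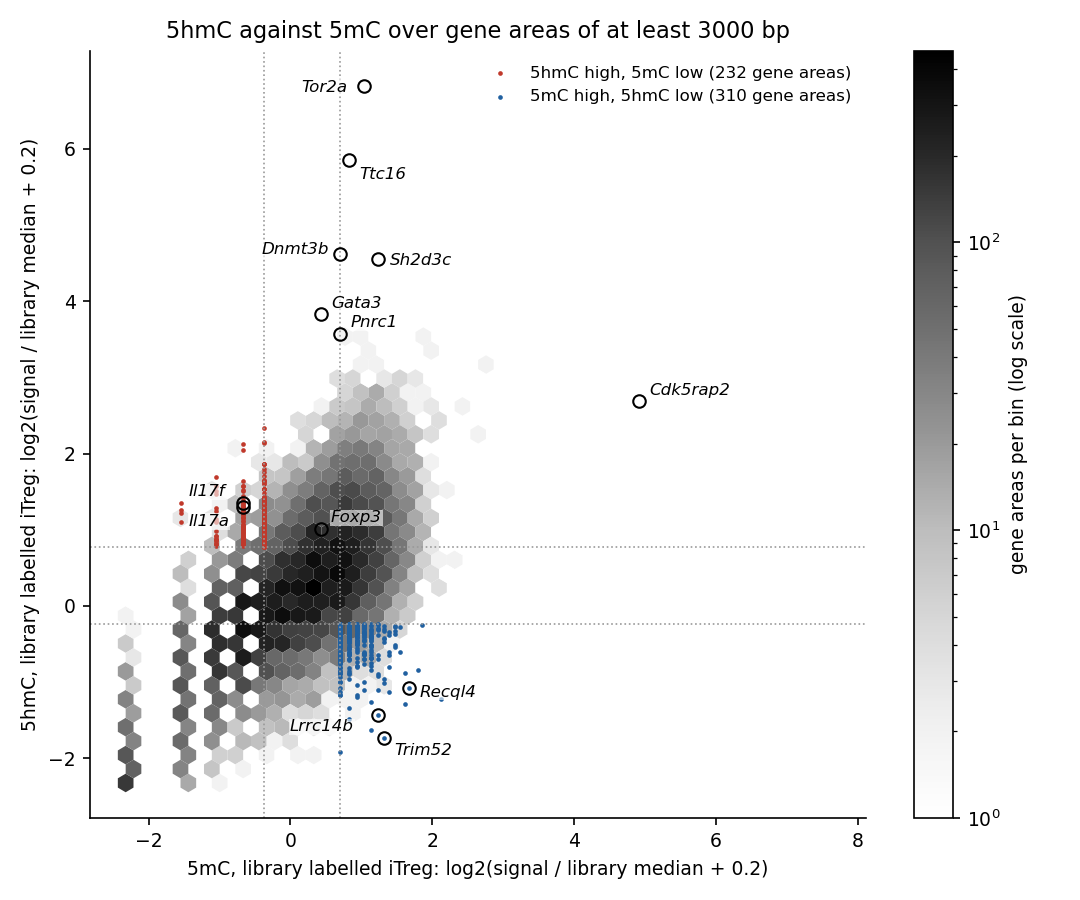
5hmC (vertical) against 5mC (horizontal) in the libraries labelled iTreg, each as log2 of the signal in library medians plus 0.2, for 22600 gene areas; grey shade gives gene areas per bin on a log scale, and dotted lines are the quartiles of each library. Red points are the 232 gene areas at or above the 75th percentile of 5hmC and at or below the 25th of 5mC, blue points the 310 in the opposite corner, and the vertical stripes at low 5mC are single rounding steps.

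A test was possible across cell types, with the 5 cell types as blocks and the marks compared within them (limma, 10 libraries). Its error is the variation from one cell type to the next. A gene area was called when its adjusted p was under 0.05 and the marks differed at least 2-fold, which gave 1428 with more 5hmC than 5mC relative to the library medians (6.32%) and 860 with less (3.81%). The fold limit decided these counts, since 1428 and 861 gene areas passed it and 9488 passed the p limit at any size. Of the 1946 gene areas at least 2-fold higher in the libraries labelled iTreg, 1097 were also called higher by limma, and 582 of the 1067 lower ones were called lower. The iTreg pair is part of this test, so these counts are not independent of each other.

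Genes of T cell identity carried 5hmC well above, and 5mC near, the middle of the libraries labelled iTreg. The T cell lineage list, which holds the T cell receptor complex, its kinases and the transcription factors of the lineage, had a median log2 ratio of 1.42 over 26 genes, against 0.09 over all gene areas. Of these genes 21 (80.8%) were at least 2-fold higher and 0 at least 2-fold lower, against 8.61% and 4.72% of all gene areas, and limma across the 5 cell types called 22 higher and 0 lower, against 6.32% and 3.81%. After the exchange the median was 1.085. An IgG signal of at least 3 times its median was found at 6 of the 26 genes, against 6.41% of all gene areas, and without gene areas of that kind the median was 1.355. Their median 5hmC was 2.66 library medians and their median 5mC was 0.93. Cd5, which dampens T cell receptor signals, had a 5hmC signal of 81.8 and a 5mC signal of 0.7 in the libraries labelled iTreg. In those labelled Th17, Th2, Th1 and naive its 5hmC was 48.2, 116.2, 79.4 and 152.9, and its 5mC 0.9, 1.0, 1.0 and 0.7. The log2 ratio of Cd5 was 2.34 in the libraries labelled iTreg, below naive (3.15) and Th2 (2.38) and above Th1 (2.06) and Th17 (1.47). The adhesion receptor gene Cd2 reached 2.31 and Cd247, the zeta chain of the receptor complex, 2.04. At the low end stood Cd8a, a coreceptor of killer T cells, at 0.49 and Runx3, a factor of the same lineage, at 0.37.

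Genes of the naive state and of T cell receptor signalling showed the same pattern. The naive signature list had a median ratio of 1.23, with 13 of 20 genes (65%) at least 2-fold higher, against 8.61% of all gene areas, 0 lower, against 4.72%, and 15 called higher by limma, against 6.32%. After the exchange its median was 0.81. Cd27, a costimulatory receptor, led it with 38.6 of 5hmC and 0.3 of 5mC, a log2 ratio of 2.24 (rounding range 2.09 to 2.42). S1pr1, the receptor that lets T cells leave lymph nodes, stood at 1.66, while Actn1 and Itga6, genes of cell adhesion, stood at 0.00 and -0.14. The signalling list had a median of 0.99, with 15 of 32 genes (46.9%) at least 2-fold higher, 0 lower and 15 called higher, and 0.79 after the exchange. Ptprc, the phosphatase CD45, had 29.5 of 5hmC and 0.3 of 5mC (log2 ratio 1.89). The calcineurin gene Ppp3ca stood at 0.07 and the NF-kB subunit gene Rela at -0.44. In all 3 lists the naive pair had the highest median of the 5 cell types, 2.28, 2.40 and 1.56, above the 1.42, 1.23 and 0.99 of the pair labelled iTreg.

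Genes that define the labelled cell type were less far to the 5hmC side. The iTreg signature list had a median log2 ratio of 0.70 over 22 genes, with 8 (36.4%) at least 2-fold higher, against 8.61% of all gene areas, 0 lower, against 4.72%, and 8 called higher by limma, against 6.32%. After the exchange its median was 0.80. The other cell types had medians of 0.78 (Th17), 0.87 (Th2), 0.79 (Th1) and 0.80 (naive) for the same list. Foxp3 (chromosome X, 7156818 to 7172359, plus strand, NCBI gene 20371) had 25.3 of 5hmC and 0.8 of 5mC in the libraries labelled iTreg. In those labelled Th17, Th2, Th1 and naive it had 30.9, 16.9, 13.0 and 24.2 of 5hmC and 0.9, 0.7, 1.2 and 1.3 of 5mC. Its log2 ratio of 0.59 lay below that of Th17 (0.87) and above Th2 (0.23), naive (-0.12) and Th1 (-0.56), and rounding allows 0.51 to 0.67. The difference from the other 4 was 0.48 ± 0.51 (SE, limma, adjusted p = 1.0), and across the 5 cell types Foxp3 was not called (log2 difference 0.20, adjusted p = 0.43). With the 5hmC libraries labelled iTreg and Th17 exchanged, the Foxp3 ratio was 1.01.

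Other genes of regulatory T cells varied around this level. Ctla4, an inhibitory receptor (chromosome 1, 60965868 to 60972673), had 35.0 of 5hmC and 0.3 of 5mC, and its log2 ratio was 2.11 (rounding range 1.96 to 2.29), or 1.56 after the exchange. It was among the gene areas high in 5hmC and low in 5mC. Its 5hmC was 20.4, 41.0, 27.1 and 26.3 and its 5mC 0.4, 0.3, 0.6 and 0.6 in the libraries labelled Th17, Th2, Th1 and naive. Ctla4 was called higher across the cell types (log2 difference 1.57 ± 0.21, SE, limma adjusted p = 9.8e-05). Il2ra, the high-affinity interleukin 2 receptor chain, had 48.6 and 0.8, and its ratio of 1.46 was below those labelled Th2 (2.13), Th1 (1.94) and Th17 (1.81) and above naive (1.27), and was 1.81 after the exchange. Cish, a feedback inhibitor of cytokine signals, was the highest of the list at 2.37. Ikzf2 and Ikzf4, transcription factors found in regulatory T cells, stood at 0.16 and 0.82, and Nt5e, an enzyme that makes adenosine, at 1.12. Lrrc32, which holds latent TGF-beta on the cell surface, stood at -0.32, and Socs2, another feedback inhibitor, at -0.80.

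TGF-beta is the signal shared by iTreg and Th17 cultures, and genes of its pathway had a median log2 ratio of 0.37 over 26 genes, with 7 (26.9%) at least 2-fold higher and 0 lower, against 8.61% and 4.72% of all gene areas. Among receptors, Tgfbr2 had 73.5 of 5hmC and 1.4 of 5mC (log2 ratio 1.32) and Tgfbr1 had 12.5 and 0.5 (0.27). Among transducers and inhibitors, Smad3 stood at 0.95, Smad7 at 1.05, Skil at 1.35 and Smad6 at -0.66. The ligand gene Tgfb1 stood at 1.02, and its ratio was the lowest of the 5 cell types (1.60, 1.41, 1.56 and 2.13 in Th17, Th2, Th1 and naive). Genes of the enzymes that write, oxidise and read 5mC stayed near the middle, with a median of 0.19 over 20 genes. Of these, 1 (5%) was at least 2-fold higher, against 8.61% of all gene areas. Tet2, the enzyme in the study's title, had 20.8 of 5hmC and 1.0 of 5mC, a ratio of 0.06 against 0.69, 0.61, 0.23 and 0.34 in Th17, Th2, Th1 and naive. The 1 higher gene was Dnmt3b, a de novo methyltransferase, with 339.7 of 5hmC and 1.0 of 5mC (log2 ratio 3.92). Its IgG signal was 326.1, and 5hmC was as high as 308.6, 252.4, 215.8 and 162.5 in the other libraries.

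**Figure D2:**
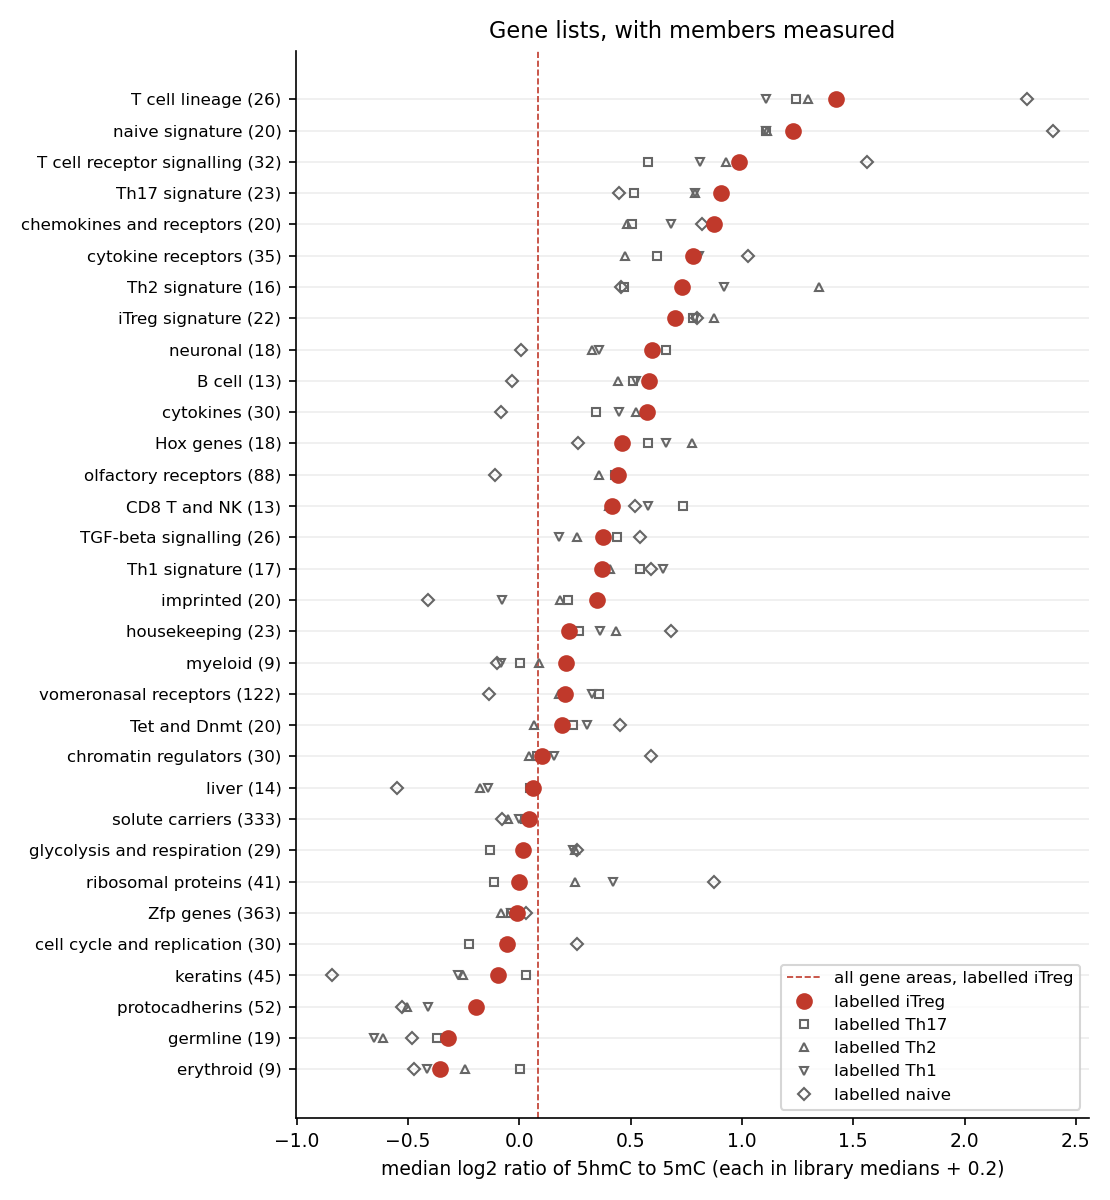
Median log2 ratio of 5hmC to 5mC for 32 gene lists (rows, members measured in brackets), with the pair labelled iTreg as filled red circles and the other 4 cell types as open grey symbols; the dashed line at 0.09 is the median of all gene areas in the pair labelled iTreg. T cell lineage genes lie highest at 1.42 and erythroid genes lowest at -0.36.

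T cell lists made up most of the high medians, and lists of other cells overlapped them in part. Of the 32 lists, 9 had a median at least 0.5 above that of all gene areas. They were the T cell lineage, naive signature, T cell receptor signalling, Th17, Th2 and iTreg signature, cytokine receptor and chemokine lists and, as the lowest of them, the neuronal list at 0.60. The 18 neuronal genes are mostly very long, with a median of 582716 bp, and were low in both marks, with medians of 0.68 in 5hmC and 0.43 in 5mC. The chemokine list was also below the middle of both libraries, with medians of 0.88 in 5hmC and 0.93 in 5mC. B cell genes had a median of 0.58 over 13 genes and Hox genes 0.46 over 18, both above the Th1 signature list at 0.37 over 17 genes. Germline genes had a median of -0.32, with 0.76 library medians of 5hmC and 1.0 of 5mC. Of 19, 0 were at least 2-fold higher and 2 (10.5%) lower, against 8.61% and 4.72% of all gene areas. Erythroid genes had -0.36 over 9 genes, keratins -0.09 over 45 and cell cycle genes -0.05 over 30. Olfactory receptor genes, silent in T cells, had 0.44 over 88 gene areas, with both marks low (0.62 and 0.43 medians).

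Protocadherins, cell adhesion genes in tandem clusters on chromosome 18, split by cluster. The whole list of 52 had a median ratio of -0.20. In it 5 genes (9.62%) were at least 2-fold higher and 12 (23.1%) lower, against 8.61% and 4.72% of all gene areas. Limma called 4 higher and 15 lower, against 6.32% and 3.81% of all gene areas. All 12 and all 15 were Pcdhb genes, whose 15 members had a median of -1.47 and a range of -2.17 to -0.58. Their median 5hmC was 4.2 and their median 5mC 1.1. Of them 7 were among the gene areas high in 5mC and low in 5hmC, against 1.37% of all gene areas. Pcdhb3 had 2.7 of 5hmC and 1.1 of 5mC in the libraries labelled iTreg, against 4.6, 5.7, 2.3 and 2.5 of 5hmC and 1.0, 1.4, 1.7 and 1.5 of 5mC in those labelled Th17, Th2, Th1 and naive. The median of the Pcdhb genes was even lower in the other cell types, -1.61, -1.80, -1.80 and -2.16. The 14 Pcdha genes had a median of 0.69 and the 23 Pcdhg genes -0.14. The areas of Pcdhb genes are 3034 to 5271 bp long, while those of Pcdha (43689 to 257373 bp) and Pcdhg genes (22328 to 179929 bp) share their downstream exons and so overlap one another. The split into clusters was made after the values were seen.

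The highest ratios came from a few gene areas with very high 5hmC. Tor2a (chromosome 2, 32612790 to 32617763) had 1575.3 of 5hmC and 1.3 of 5mC in the libraries labelled iTreg, and 316.3, 1064.8, 841.9 and 2490.0 of 5hmC in those labelled Th17, Th2, Th1 and naive. Its log2 ratio was 5.79. Ttc16, which overlaps it, and Sh2d3c, 2277 bp away, followed with 5.03 and 3.33, so these 3 are 1 stretch of genome and not separate findings. IgG signal was 107.9, 54.3 and 29.7 there, and its part in the result was not tested. Pnrc1, a coactivator of nuclear receptors, had 162.6 of 5hmC, 1.0 of 5mC and an IgG signal of 0.4, and its ratio of 2.87 was close to those of the other cell types (3.09, 2.78, 2.73 and 2.65). Atg4a, a protease of autophagy, had 2.77 and Psmb8, a subunit of the immunoproteasome, 2.71. Il21, a cytokine of Th17 and follicular helper cells, had 82.2 of 5hmC against 37.8, 76.1, 71.2 and 59.6, and 0.5 of 5mC against 0.7, 0.8, 0.9 and 0.6. Its ratio was 2.74 against 1.45, 2.07, 2.04 and 2.01. After the exchange it was 1.84, below Th2, Th1 and naive. Limma called it higher across them (log2 difference 2.06 ± 0.18, SE, adjusted p = 9.4e-06).

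A class of 232 gene areas (1.03%) stood at or above the 75th percentile of 5hmC and at or below the 25th of 5mC. Its leading genes by rank were Mrgprg, Fshb, Sp100, Zfp36l2 and Tusc3. Sp100, an interferon-induced nuclear body gene (chromosome 1, 87546624 to 87606022), had 38.5 of 5hmC and 0.2 of 5mC, and 34.0, 31.7, 27.2 and 41.3 of 5hmC and 0.2, 0.3, 0.4 and 0.3 of 5mC in the libraries labelled Th17, Th2, Th1 and naive. Its ratio was 2.61 both as labelled (rounding range 2.41 to 2.84) and after the exchange. Zfp36l2, which binds and destabilises AU-rich mRNAs, had 36.7 and 0.2 (log2 ratio 2.55, rounding range 2.35 to 2.78). Genes of the T cell, cytokine and cytokine receptor lists in the class were Cd3d, Cd2, Lcp2, Tcf12, Ptpn22, Prkcq, Ptprc, Il7r, Satb1, Btla, Ets1, Cd27, Il12rb2, Ctla4, Il20ra, Il2, Il17a and Il17f. Il12rb2, the Th1 interleukin 12 receptor chain, had 30.2 and 0.4. Of the class, 12 gene areas (5.17%) were in the same class in all 5 cell types and 82 (35.3%) in the libraries labelled iTreg alone. Such a count is not given for the other cell types, so it is not shown to be particular to iTreg. The class shared 34.5%, 28.9%, 31.0% and 30.2% of its members with that of Th17, Th2, Th1 and naive. Its 5mC limit of 0.4 is a few rounding steps of 0.1 above 0, so 1 step can move a gene area in or out.

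The opposite class, high in 5mC and low in 5hmC, held 310 gene areas (1.37%). It was led by Trim52, BY080835, Recql4, Lrrc14b and Ifrd2. Trim52, a ubiquitin ligase gene of the TRIM family, had 1.4 of 5hmC and 1.6 of 5mC, and 1.1, 1.1, 1.4 and 2.6 of 5hmC and 1.0, 2.1, 1.3 and 1.1 of 5mC in the libraries labelled Th17, Th2, Th1 and naive. Its log2 ratio of -3.05 was the lowest of the named genes, and limma called it lower across the cell types (log2 difference -2.76 ± 0.20, SE, adjusted p = 3.7e-06). Recql4, a DNA helicase of replication and repair, had 3.8 of 5hmC and 2.1 of 5mC (log2 ratio -2.76). Ifrd2, whose promoter with 28 CG is shown above, had 5.0 of 5hmC and 2.3 of 5mC (-2.64), and the neighbouring BY080835, 29 bp away, had 2.9 and 2.0 (-2.90). In the libraries labelled Th17, Th2, Th1 and naive, Ifrd2 had 4.0, 8.5, 18.2 and 12.4 of 5hmC, so the pair labelled Th17 was as low, and 2.1, 2.8, 2.5 and 2.1 of 5mC. A different kind of low ratio was that of Cdk5rap2, a centrosome gene, with 86.7 of 5hmC and 21.0 of 5mC, high in both marks. Of the class, 18 gene areas (5.81%) were in it in all 5 cell types and 114 (36.8%) in the libraries labelled iTreg alone. Here too no such count is given for the other cell types. The class shared 36.5%, 30.0%, 32.6% and 20.3% of its members with that of Th17, Th2, Th1 and naive.

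The classes differed in features that the ratio did not use. The median gene area was 8837 bp in the class high in 5hmC, 7825 bp in the class high in 5mC and 18384 bp over all gene areas. Where a RefSeq promoter was matched, the median promoter held 7 CG in the class high in 5hmC, and 16 both in the opposite class and over all gene areas. Long non-coding RNA genes made up 12.4% of the matched members of the class high in 5hmC, 5.11% of the opposite class and 6.72% of all. An IgG signal of at least 3 times its median was found in 9.91%, 8.39% and 6.41%. Over the 14954 gene areas with a promoter, ranked by CG count into 4 groups of like size, the median log2 ratio was 0.24 in the group poorest in CG and 0.07, -0.03 and 0.02 in the others. The share at least 2-fold higher was 12.6% in the poorest group and 7.84%, 5.78% and 6.31% in the others. The poorest group was lower in both marks, with medians of 11.9 of 5hmC and 0.5 of 5mC. The others had medians of 15.0 to 15.2 of 5hmC and 0.8 of 5mC. The higher ratio of the poorest group thus went with lower 5mC and not with more 5hmC.

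The spread of the ratio over gene areas was wider among short ones. The SD of the log2 ratio was 0.862 among the 2261 shortest gene areas (3000 to 4572 bp) and 0.521 among the 2260 longest. Just inside the length limit, 785 gene areas of 3000 to 3499 bp had a median ratio of -0.01 and an SD of 0.868, and just outside it 976 gene areas of 2500 to 2999 bp had 0.00 and 0.899. On the X chromosome both marks were lower, with a median of 8.2 of 5hmC and 0.4 of 5mC over 1029 gene areas, and the median ratio was again 0.09.

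The ratio in the libraries labelled iTreg was then set against the same ratio in the other 4 cell types. Across gene areas its Spearman's rho with the ratio of the pairs labelled Th17, Th2, Th1 and naive was 0.687, 0.717, 0.712 and 0.522, with n = 22600. The iTreg ratio was above all 4 others in 4158 gene areas (18.4%) and below all 4 in 3297 (14.6%). It was also at least 1 away from their mean in 277 (1.23%) and 171 (0.757%). The same counts were 468 and 420 for Th17, 198 and 235 for Th2, 172 and 171 for Th1, and 1631 and 959 for naive. No gene area passed limma's test of the difference (0 of 22600, 0%, smallest adjusted p = 1.0), in which the lone iTreg pair is assumed to vary like the other 4. At an unadjusted p under 0.05 there were 518 (2.29%), and 1063 without the naive pair. The largest differences are therefore given as values that did not pass the test.

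**Figure D3:**
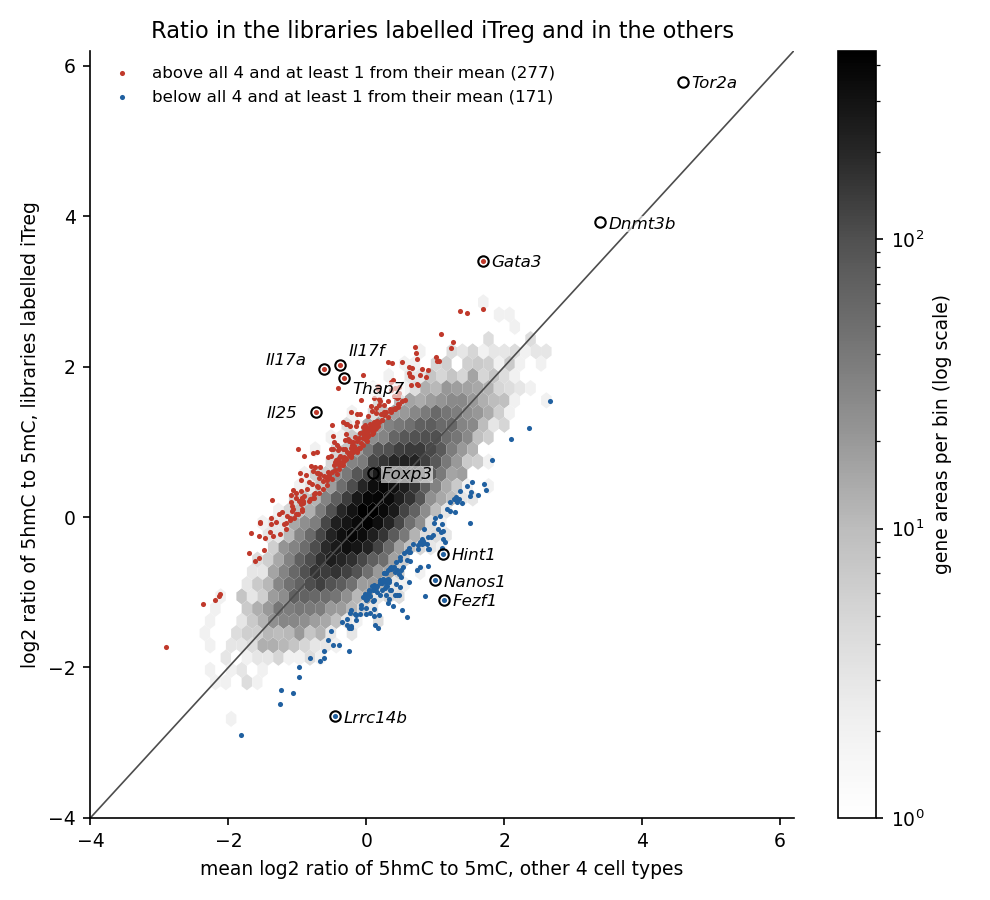
Log2 ratio of 5hmC to 5mC in the libraries labelled iTreg (vertical) against the mean of the other 4 cell types (horizontal) for 22600 gene areas, grey shade giving gene areas per bin on a log scale and the line marking equal ratios. Red points are the 277 gene areas above all 4 others and at least 1 above their mean, and blue points the 171 on the other side. Among the named genes, Il17a, Il17f, Thap7 and Il25 lie farthest above the line, and Lrrc14b and Fezf1 farthest below it.

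Among the named genes, the largest excess over the other cell types was at the neighbouring cytokine genes Il17a and Il17f. Il17a (chromosome 1, 20720985 to 20724576, plus strand, NCBI gene 16171) had 31.3 of 5hmC in the library labelled iTreg, against 8.8, 4.3, 10.8 and 7.6 in those labelled Th17, Th2, Th1 and naive. Its 5mC was 0.3 against 0.4, 0.6, 1.1 and 0.9, the lowest of the 5 by 1 rounding step. The log2 ratio was 1.96 (rounding range 1.81 to 2.14) in the pair labelled iTreg, against 0.25, -1.06, -0.66 and -0.998. Il17f, 42650 bp away (chromosome 1, 20767226 to 20774350, minus strand, NCBI gene 257630), had 32.8 of 5hmC against 5.3, 13.0, 10.4 and 7.6, and 0.3 of 5mC against 0.6, 0.7, 0.7 and 0.6. Its ratio was 2.03 (rounding range 1.87 to 2.20) against -0.74, -0.09, -0.16 and -0.52. At both genes the library labelled iTreg was highest in 5hmC and lowest in 5mC. Relative to the mean of the other 4, the log2 differences of Il17a were 1.72 in 5hmC and -0.86 in 5mC, and those of Il17f were 1.64 and -0.76.

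The difference of the ratio from the other 4 was 2.58 ± 0.52 at Il17a and 2.40 ± 0.42 at Il17f (SE, limma, adjusted p = 1.0 for both, unadjusted p = 0.00055 and 0.00018). Without the pair labelled Th17 it was 2.87 and 2.28. With the 5hmC libraries labelled iTreg and Th17 exchanged it was 0.81 at Il17a and -0.12 at Il17f, and the ratios themselves were 0.54 and 0.01. The Th17 signature list, which includes both genes, had a median ratio of 0.91 over 23 genes, against 0.51, 0.79, 0.79 and 0.45 in the pairs labelled Th17, Th2, Th1 and naive, and 0.57 after the exchange. In 8 of 23 genes (34.8%) the iTreg ratio was above all 4 others, against 18.4% of all gene areas, and in 1 (4.35%) it was below them. Tmem176a, a membrane protein gene expressed in Th17 cells, had 13.6 of 5hmC against 2.3, 10.7, 8.2 and 8.0, and 0.3 of 5mC against 0.8, 0.6, 1.2 and 0.9 in the libraries labelled Th17, Th2, Th1 and naive. Its ratio was 0.91 (rounding range 0.75 to 1.09) against -1.79, -0.13, -1.08 and -0.95, and -0.70 after the exchange.

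**Figure D4:**
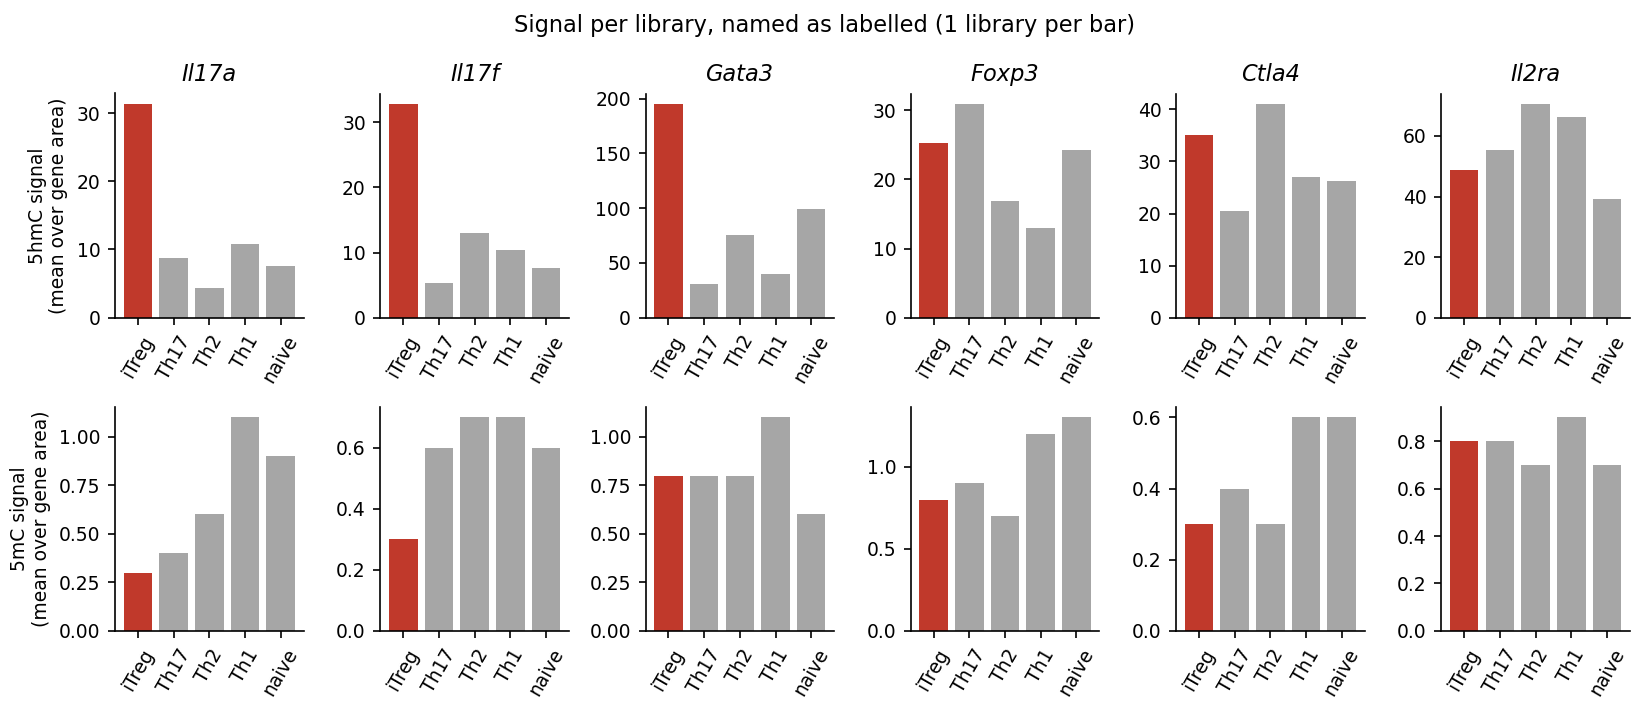
Signal of 5hmC (upper row) and 5mC (lower row) at 6 genes, as the mean over the gene area in deposited units, with 1 bar per library and the libraries labelled iTreg in red at the left; axes differ between panels and start at 0. Il17a, Il17f and Gata3 have their highest 5hmC in the library labelled iTreg, while Foxp3 is highest in the library labelled Th17 (30.9 against 25.3 in iTreg) and Ctla4 and Il2ra are highest in Th2.

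Gata3, the master regulator of Th2 cells that is also expressed in regulatory T cells (chromosome 2, 9778704 to 9800226, minus strand, NCBI gene 14462), had 194.9 of 5hmC in the library labelled iTreg. It had 30.4, 75.2, 40.1 and 99.6 in those labelled Th17, Th2, Th1 and naive, while its 5mC was 0.8 against 0.8, 0.8, 1.1 and 0.6. The difference lay in 5hmC, with a log2 difference from the other 4 of 1.78 in 5hmC and 0.07 in 5mC. Its ratio of 3.40 was the highest of the 5 cell types (0.99, 2.05, 1.00 and 2.72), and limma called Gata3 higher across them (log2 difference 2.03 ± 0.30, SE, adjusted p = 0.0002). The difference from the other 4, 1.71 ± 0.63, did not pass (adjusted p = 1.0), and was -1.30 after the exchange. Its IgG signal was 15.1. Tbx21, the Th1 regulator, had 0.01 (rounding range -0.06 to 0.08) against 0.06, 0.86, 1.43 and 0.20. It was below all 4 others, but rounding does not separate it from the pair labelled Th17. Il4, the Th2 cytokine gene, had -0.50 against 0.40, 1.38, 0.03 and -0.02, also below all 4. Ifng, the Th1 cytokine gene, had -0.15 against 0.26, 0.03, 0.24 and -0.41, within their range.

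Further gene areas above the other 4 differed in which mark set them apart. Thap7, a zinc finger gene of 3071 bp, had 21.6 of 5hmC against 10.5, 12.5, 9.9 and 22.7, and 0.2 of 5mC against 0.8, 0.8, 1.1 and 1.0, so its excess of 2.17 lay mostly in 5mC (log2 difference -1.55). Its ratio of 1.85 has a rounding range of 1.65 to 2.08 and was 1.12 after the exchange. Prkrir, of 14700 bp, and Bcl2l10, an apoptosis regulator of 3883 bp, had excesses of 1.53 and 1.72, of which -1.17 and -1.36 were in 5mC. Il25, an interleukin 17 family cytokine of 3143 bp, differed in 5hmC instead, with 62.0 against 11.4, 17.1, 15.2 and 10.5, at an IgG signal of 20.5. Over all 277 gene areas above the other 4 by at least 1, the part from lower 5mC was larger in 170 and that from higher 5hmC in 107, 198 were under 10000 bp, and 139 had a 5mC signal of at most 0.2. Of the 171 below, 86 had the larger part in 5mC and 85 in 5hmC, and 120 were under 10000 bp.

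Gene areas below the other cell types are named next, none of which passed the test. Lrrc14b, a leucine-rich repeat gene (chromosome 13, 74497029 to 74501447), had 2.4 of 5hmC against 10.5, 7.7 and 11.8 in the libraries labelled Th17, Th2 and naive and a higher value still in Th1, and 1.5 of 5mC against 0.8, 1.2, 0.9 and 0.8. Its difference from the other 4 was -2.20 ± 0.55 (SE, limma, adjusted p = 1.0). Fezf1, a zinc finger gene of forebrain development, had 2.2 of 5hmC against 10.6, 8.3, 12.1 and 2.3, and 0.4 of 5mC against 0.1, 0.0, 0.2 and 0.2. Nanos1, a translational repressor of germ cells, had 3.2 of 5hmC against 12.3, 12.8, 10.9 and 17.2. Hint1, a nucleotide hydrolase expressed in most cells, had 7.7 against 13.2, 16.3, 21.7 and 29.0, and 0.6 of 5mC against 0.3, 0.5, 0.4 and 0.4. Taf1d, a subunit of the RNA polymerase I initiation complex, had 6.3 against 10.3, 12.5, 16.9 and 17.7. The remaining gene areas named below the others, Sval3, Gsdmcl1 and Prl3d3, had differences of -1.90, -1.76 and -1.58.

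Ribosomal protein and energy metabolism genes were below all 4 other cell types more often than gene areas at large. The medians of both lists were nevertheless lowest in the pair labelled Th17, with the pair labelled iTreg next. The median ratio of 41 ribosomal protein genes was 0.00 in the pair labelled iTreg, against -0.12 in Th17, 0.25 in Th2, 0.42 in Th1 and 0.87 in naive. The iTreg ratio was below all 4 others in 13 of them (31.7%) and above all 4 in 2 (4.88%), against 14.6% and 18.4% of all gene areas. The median difference from the other 4 was -0.42, with a median of -0.28 in 5hmC and 0.17 in 5mC. After the exchange the median ratio was -0.31. Rpl21 had 10.2 of 5hmC against 11.4, 20.7, 13.0 and 39.5, and 1.3 of 5mC against 1.4, 1.1, 1.3 and 1.1. Rps4x, on the X chromosome, went the other way at a ratio of 1.37 against 0.01, 0.37, 0.13 and 0.35. Of 29 glycolysis and respiration genes, 11 (37.9%) were below all 4 and 0 above. Their median ratio was 0.02, against -0.13 in Th17, 0.25 in Th2, 0.24 in Th1 and 0.26 in naive. After the exchange it was -0.18. Aldoa, a glycolytic enzyme, had a ratio of 1.36 against 0.56, 2.09, 1.61 and 2.32, and the glucose transporter gene Slc2a3 had -1.23 against -0.71, -0.05, -0.40 and -0.23. Ribosomal protein genes have many processed pseudogenes of near-identical sequence, so their signal is uncertain where reads could be placed at either copy.

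Imprinted genes, methylated on 1 parental copy, were above all 4 other cell types in 8 of 20 (40.0%) and below in 0, against 18.4% and 14.6% of all gene areas. Their median ratio was 0.35, against 0.22, 0.18, -0.08 and -0.41 in Th17, Th2, Th1 and naive, and 0.33 after the exchange. An IgG signal of at least 3 times its median was found at 4 of the 20 genes, against 6.41% of all gene areas. Without gene areas of that kind the median was 0.11, near the 0.09 of all gene areas. Peg10, expressed from the paternal copy, had 72.4 of 5hmC against 55.6, 53.4, 33.0 and 31.4, and 0.9 of 5mC against 1.2, 1.1, 1.4 and 1.9. Its ratio was 1.86 in the pair labelled iTreg, against 1.30, 1.18, 0.43 and -0.28. Magel2, another paternally expressed gene, was at -1.56 against -1.03, -2.62, -1.47 and -2.08. Keratin genes were above the other 4 in 12 of 45 (26.7%) and protocadherins in 15 of 52 (28.8%), with 1 and 0 below, against the same 18.4% and 14.6%. Of these 15 protocadherins 10 were Pcdhg genes, whose areas overlap and are not separate members.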

How the data were processed

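The table deposited by the authors gives a mean signal per gene area, at or above 0 and with 1 decimal. CASAVA 1.7.0 and mm9 are named, per the submitters' processing notes. How reads were aligned, counted, cleared of duplicates and scaled is not given in the sources used here, so depth is unknown and no counting interval could be computed.

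Each column was assigned through the sample number that its name shares with a library's title. No column was passed over (0 unused). Of 37752 rows, 208 with a repeated symbol were left out (the row with the highest mean was kept), and 22880 gene areas had at least 3000 bp, of which 280 at 0 in all 10 libraries were dropped. Symbols and gene IDs come from the table, and 19908 IDs were found in the RefSeq table of GRCm38.p6, used for gene class and promoters.

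Since the unit is signal and not counts, limma 3.58.1 (R 4.3.3) was used with trended empirical Bayes, with cell type and mark as terms, and with a term for the mark in iTreg for the difference, which leaves 3 residual degrees of freedom. P-values were adjusted by Benjamini-Hochberg over all 22600 gene areas, and the scripts were tested on simulated data. Other steps used Python 3.11.15, numpy 2.4.6, pandas 2.3.3 and matplotlib 3.10.9. P-values measure only the spread between these libraries.

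Named genes were 25 fixed T cell, Tet and Dnmt genes, the 10 highest and 10 lowest ratios, the 8 largest differences each way, the 5 leading genes of each class and 2 at each end of a list, with at least 0.2 of 5mC and 1 of 5hmC outside the fixed genes and lists. Predicted genes, olfactory and vomeronasal receptors, small RNAs and receptor segments were passed over in naming but stay in counts. Genes, lists and markers were chosen with earlier results of these data known, and further list members (Cd2, Cd247 and those said to be in a class) were named after their values were seen. Some genes that these rules name are not reported here. Alternatives were another constant, another scaling, other length limits, filters on low values and on IgG, exchanged 5hmC labels, other percentiles, each cell type left out, no cell type block and no trend.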

Additional observations from a re-analysis of the deposited data

Results flagged for a closer look

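At 5 named genes the log2 ratio of 5hmC to 5mC had one sign in the libraries labelled iTreg and the opposite sign in every one of the other 4 cell types. The ratio was 2.03 at Il17f, 1.40 at Il25 and 0.91 at Tmem176a, each negative in the other 4. It was -0.84 at Nanos1 and -0.49 at Hint1, each positive in the other 4. Over all 22600 gene areas, 562 (2.49%) were positive in iTreg alone and 449 (1.99%) negative in iTreg alone, so the pattern is not particular to these genes. After the exchange of the 5hmC libraries labelled iTreg and Th17 the ratio was 0.01 at Il17f, -0.65 at Il25, -0.70 at Tmem176a, 0.64 at Nanos1 and 0.27 at Hint1. Limma's test of these differences gave an adjusted p of 1.0 for each, with 1 pair of libraries per cell type. The IgG signal at Il25 was 20.5, against an IgG median of 1.0, and its part in the result was not tested.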

How the results depend on the processing

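Depth is unknown, and 5mC values were a few rounding steps above 0. Counts past a fixed ratio changed with the constant and with the gene areas taken. The count at least 2-fold higher in the libraries labelled iTreg (1946) was 1039 with a constant of 0.5, 1256 with division by the mean, and 3414 and 1061 over gene areas of at least 1000 and 10000 bp. The count at least 2-fold lower (1067) was 1659 and 460 with constants of 0.05 and 0.5, and 1787 and 490 with those lengths. The limma calls across the 5 cell types, 1428 higher, were 838, 870, 2438 and 854 in the first 4 of these settings. The 860 lower were 1355 and 352 with the constants of 0.05 and 0.5, and 1550 and 321 with the lengths. Higher calls made up 62.4% of limma's calls, 42.4% with division by the mean and 76.1% with the median over all lengths. The class high in 5hmC (232) held 426 and 105 at the lengths of 1000 and 10000 bp, 499 after a filter on low values and 5 at the 90th and 10th percentiles. The class high in 5mC (310) held 152 at 10000 bp, 667 after the filter, 473 after the exchange of the 5hmC libraries labelled iTreg and Th17, and 19 at those percentiles. The cause was not tested, except that fewer or more gene areas and stricter percentiles change the counts by construction.

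Among named ratios past 2-fold, the exchange reversed those at Il25 (-0.65), Prkrir (-0.078), Fezf1 (0.46), Sval3 (0.32), Gsdmcl1 (0.75) and Krt81 (0.14). It reversed the difference from the other 4 cell types at Gata3 (-1.30), Il17f (-0.12), Il25 (-0.44), Tmem176a (-0.11), Prkrir (-0.12), Nanos1 (0.011) and Gsdmcl1 (0.73). The difference test gave 0 calls in every setting run, and its count at an unadjusted p under 0.05 ranged from 295 to 1365, the last after the exchange. With 1 cell type left out at a time, limma across cell types called 1435 to 1495 higher and 811 to 950 lower. Without the cell type block the calls were 1428 and 861. Since nearly all gene areas past 2-fold also passed the p limit, settings that leave the mean difference as it is (exchange, block, trend) could hardly move these counts. At any size, 7245 to 10439 gene areas passed the p limit with 1 cell type left out, 10099 without the block and 9378 after the exchange, against 9488. The number of lists at least 0.5 above all gene areas was 7 to 11 in the settings run, against 9. No paired analysis was possible because the labels give no replicate numbers, and the marks were paired by cell type instead.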
